A study of Danio rerio with 8 samples.

Results

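The cytosolic chaperonin CCT, also called TRiC, is built from 8 related subunits encoded by tcp1, cct2, cct3, cct4, cct5, cct6a, cct7 and cct8. They were taken by gene symbol as the members of 1 complex, with earlier results of these data known, and 5 of the 8, tcp1, cct3, cct4, cct5 and cct6a, were taken from a table of 21234 genes. The genes cct2, cct7 and cct8 are not analysed here. All 5 passed the filter on low counts, which left 2501 genes for testing.

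The libraries were made from polyadenylated RNA of adult zebrafish hearts, from dissociated ventricles whose cells are labelled cardiomyocytes. The control group and the Hmga1a overexpression group each had 4 libraries, and Hmga1a is a chromatin protein that binds AT-rich DNA. All 8 came from fish with the cmlc2:dsred reporter, in which a heart muscle promoter drives a red fluorescent protein, and all are labelled as taken 14 days after tamoxifen. Tamoxifen was used to induce the overexpression in hearts that the study calls uninjured. The sources used here do not give the driver and construct behind the induction, the number of fish per library or the way cells were picked, and the p-values given below therefore reflect the scatter among libraries, which may be technical.

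CCT is a pair of stacked rings with a closed chamber in which newly made proteins fold, driven by ATP. Actin and tubulin are its best known clients, and proteins with beta-propeller folds, such as G protein beta subunits, are others. Prefoldin hands unfolded actin and tubulin to the ring, phosducin-like proteins modulate it, and tubulin cofactors take over tubulin after release. In heart muscle the actin of the thin filament has to pass through this route. In yeast the delta subunit (the product of the cct4 orthologue) and the epsilon subunit (cct5) are among those that bind ATP with high affinity, and the gamma (cct3) and zeta (cct6a) subunits are among those with low affinity.

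Library totals ran from 49598 to 352807 corrected counts in controls and from 302157 to 572295 with overexpression. Control 2 was the shallowest and held only 42.08 counts of the 5 subunits together, against 194.21 to 373.64 in the other controls and 548.58 to 977.84 in the overexpression libraries. The hmga1a transcript was at 72.9 ± 40.8 CPM in controls and 118.2 ± 25.1 CPM with overexpression (SD, n = 4), and its difference of 0.47 ± 0.30 (SE) on the log2 scale missed the threshold (adjusted p = 0.177, edgeR). Control 1, at 127.4 CPM, lay within the range of the overexpression libraries, which was 80.7 to 132.8 CPM. Without single libraries the difference ran from 0.24 to 0.85, and it passed as higher without control 1 (0.85, adjusted p = 0.0444, edgeR) and with library totals alone (0.80, 0.0486), while scaling on contractile genes gave -0.49 (0.228). The sources used here do not say whether these counts hold the whole transgene transcript. The dsRED transcript of the reporter rose from 583.9 ± 38.0 to 3050 ± 761 CPM (SD, n = 4; log2 fold change 2.36, adjusted p = 2.1e-12, edgeR), and eGFP, whose construct the sources used here do not give, rose from 128.7 ± 85.1 to 608.6 ± 60.9 CPM. The tested markers of cardiomyocytes were 10 higher and 3 lower of 13, where 30.4% of all tested genes passed as higher and 29.2% as lower. The marker myl7, whose promoter is the cmlc2 promoter, had 1 count in control 4 and was listed at 0 in the other 7 libraries, although genes such as tnnt2a stood at 3181 ± 857 CPM in controls (SD, n = 4). Among them tnnc1a (log2 fold change 1.94) and actc1a (1.73) rose and the titin genes ttn.2 (-2.01) and ttn.1 (-1.77) and the myosin gene myh6 (-4.00) fell. Markers of other cells were present, and all that were tested passed as lower with overexpression in edgeR, such as kdr (-1.73), fli1a (-1.50), egfl7 (-0.95), fn1b (-2.67), col1a1b (-2.48), cd74a (-1.69), cd74b (-1.47), marco (-1.95) and mpeg1.1 (-2.28). The groups overlapped for kdr, fli1a and mpeg1.1. For kdr, fli1a, mpeg1.1, egfl7 and myh6 the overexpression libraries alone would not have passed the filter on low counts. DESeq2 called 2 of 3 tested endothelial markers lower, 2 of 2 fibroblast and epicardial ones and 6 of 6 leukocyte ones. It called 656 of all 2501 tested genes lower. The summed level of 10 leukocyte markers was 3952 to 7811 CPM in controls and 1614 to 2107 CPM with overexpression, with coro1a listed at 0. The sum of 8 fibroblast and epicardial markers was 805.7 to 1665 CPM and 142.4 to 212.5 CPM, with tbx18 listed at 0. The sum of 6 endothelial markers was 150.8 to 274.6 CPM and 45.08 to 86.33 CPM, with cdh5 and plvapa listed at 0. The 5 erythrocyte and thrombocyte markers were listed at 0 in all libraries. Mitochondrial RNA made up 44.9% to 67.7% of counts in controls and 28.1% to 35.1% with overexpression.

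With Hmga1a overexpression, 4 of the 5 chaperonin subunit transcripts rose and 0 fell (edgeR's quasi-likelihood test, threshold 0.05 on the adjusted p), relative to the bulk of the transcriptome. With libraries scaled on contractile genes instead, 0 rose and 1, cct6a, fell, beside 160 higher and 1323 lower of all 2501 tested genes. The rise was led by cct5, at 2.51-fold, and cct4, at 1.86-fold. The subunit tcp1 was 1.59-fold and cct6a 1.30-fold higher, and cct3, at 1.33-fold, did not pass. By log2 fold change among all tested genes, cct5 stood at percentile 84.5, cct4 at 75.2, tcp1 at 68.4, cct3 at 60.7 and cct6a at 59.9. Over all tested genes, 30.4% passed as higher and 29.2% as lower, and the median log2 fold change was 0.01, beside 0.67 over the 5 subunits. At an unadjusted p under 0.05 in edgeR the counts were again 4 and 0, beside 818 higher and 782 lower of all 2501 tested genes. DESeq2 called 3 subunits higher and 0 lower, beside 695 higher and 656 lower of these genes. The same counts over all tested genes stand beside the partner and client lists below. These levels are relative to each library's other RNA, and in such bulk samples a change in the share of cells of a type and a change of RNA per cell cannot be told apart. The part of the reporter, of the cell type markers and of the mitochondrial share given above in the subunits' values was not tested.

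**Figure D1:**
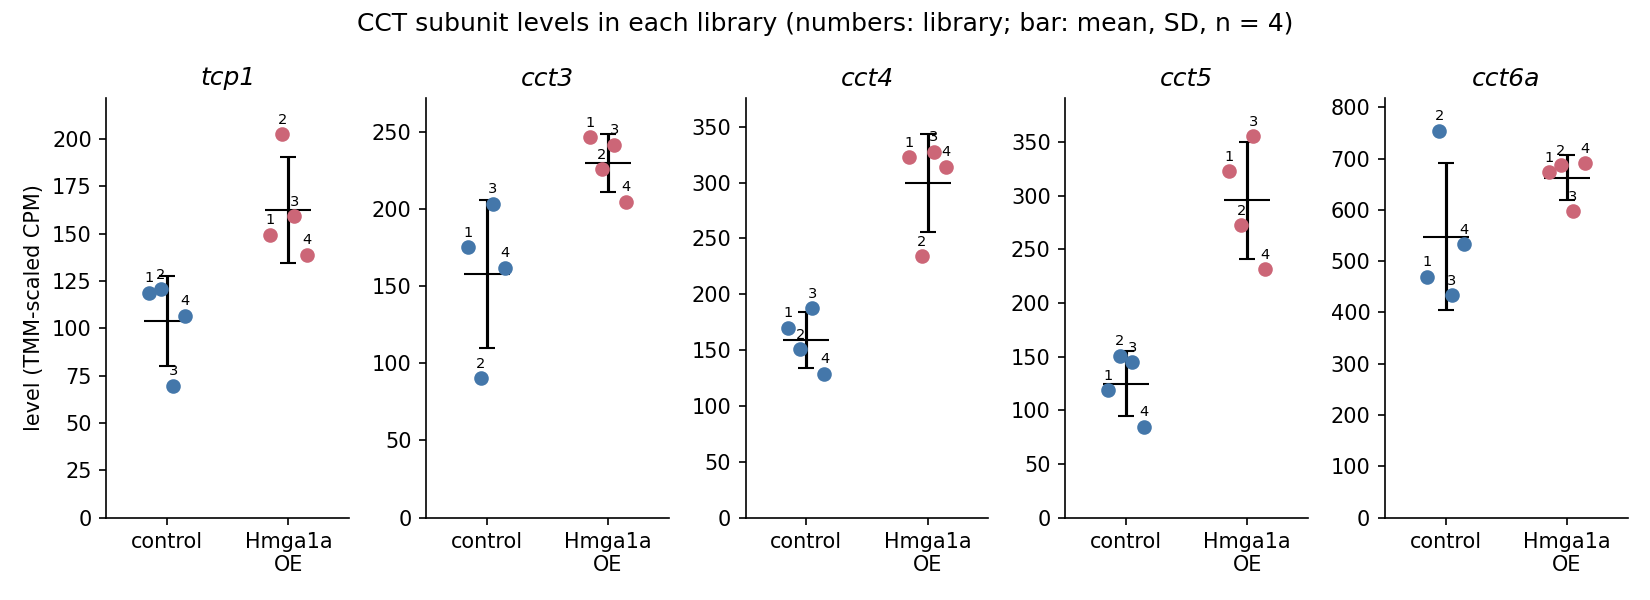
Levels of the 5 CCT subunits in TMM-scaled CPM (vertical axes from 0), with 1 point per library and its number, and bars for the mean ± SD (n = 4). For cct5 every overexpression library, from 231.4 to 355.2 CPM, lay above every control, from 84.6 to 150.8 CPM, and for cct6a control 2 lay above all overexpression libraries.

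The transcript of cct5, the epsilon subunit, was at 118.9, 150.8, 144.7 and 84.6 CPM in controls 1 to 4 (counts scaled to a common total of the tested genes by TMM). In overexpression libraries 1 to 4 it was at 322.7, 272.3, 355.2 and 231.4 CPM. The lowest overexpression library was thus well above the highest control, and the groups did not overlap. Means of 124.8 ± 30.1 and 295.4 ± 54.7 CPM (SD, n = 4) gave a log2 fold change of 1.33 ± 0.23 (SE; adjusted p = 1.6e-05, edgeR), at percentile 84.5 of all tested genes. The levels rest on 5 to 42.21 corrected counts per control and 115.6 to 164.23 per overexpression library. In zebrafish, cct5 is known to be needed for thin filament assembly in skeletal muscle.

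The transcript of cct4, the delta subunit, which was seen in contact with actin inside the mammalian chaperonin, was at 169.9, 150.8, 187.5 and 128.8 CPM in controls 1 to 4. It was at 322.7, 234.1, 327.7 and 314.0 CPM in overexpression libraries 1 to 4. Overexpression library 2 was the low one of its group, and still lay above every control. Means of 159.3 ± 25.2 and 299.6 ± 44.1 CPM (SD, n = 4) gave a log2 fold change of 0.90 ± 0.21 (SE; adjusted p = 0.000624, edgeR). With libraries scaled on contractile genes it was -0.08 and did not pass.

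The transcript of tcp1, the alpha subunit and the first of the family to be described, had the lowest mean level of the 5 in both groups. In single controls it was not always the lowest, since cct3 was lower in control 2, cct5 was lower in control 4 and cct5 was level with it in control 1. It was at 118.9, 120.7, 69.7 and 106.7 CPM in controls 1 to 4, and then stood at 149.5, 202.5, 159.2 and 138.8 CPM across overexpression libraries 1 to 4. Control 3 was the low one and overexpression library 2 the high one, and the groups did not overlap. The log2 fold change was 0.67 ± 0.25 (SE; adjusted p = 0.0236, edgeR). The call was lost in edgeR without control 3 (0.51, adjusted p = 0.107), without control 4 (0.66, 0.0599) and without overexpression library 2 (0.59, 0.0724). It was also lost with a stricter filter of minimum count 20 (0.38, adjusted p = 0.181, edgeR) and with sample number as a block (0.60, 0.0839). With scaling on contractile genes the value was -0.28.

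The transcript of cct3, the gamma subunit, was at 175.5, 90.5, 203.6 and 161.9 CPM in controls 1 to 4, and then stood at 246.8, 225.8, 241.9 and 204.9 CPM across overexpression libraries 1 to 4. The groups did not overlap, but control 3 and overexpression library 4 were only a little apart. Control 2, the lowest, rests on 3 counts. The log2 fold change of 0.41 ± 0.21 (SE) did not pass (adjusted p = 0.0913, edgeR). It passed with library totals alone (0.80, adjusted p = 0.00839) and with a milder filter of minimum count 3 (0.60, adjusted p = 0.0321), and was -0.54 with scaling on contractile genes.

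The transcript of cct6a, the zeta subunit, gave the most counts of the 5 in every library. It was at 469.9, 754.2, 434.0 and 533.5 CPM in controls 1 to 4, and then stood at 673.9, 687.3, 597.2 and 690.8 CPM across overexpression libraries 1 to 4. Here the groups overlapped through control 2, which was higher than every overexpression library on 25.07 counts, while the other 3 controls were below all of them. The log2 fold change was 0.38 ± 0.16 (SE), the smallest of the 5, and passed by a narrow margin (adjusted p = 0.0444, edgeR). It was 0.51 without control 2, and the call was lost without control 1 (0.26, adjusted p = 0.21), control 3 (0.29, 0.165), control 4 (0.39, 0.0667), overexpression library 2 (0.41, 0.0547) or overexpression library 4 (0.40, 0.0618), and with the stricter filter (0.09, 0.63), each in edgeR. With sample number as a block cct6a did not pass (0.34, adjusted p = 0.112, edgeR). DESeq2 did not call it either (0.39, adjusted p = 0.0558), and with scaling on contractile genes it was -0.56.

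In CPM, the overexpression libraries all lay above the controls for 4 of the 5 subunits, as they did for 25.7% of all tested genes. Summed over the 5, the level was 1053, 1267, 1039 and 1015 CPM in controls 1 to 4, against 1716, 1622, 1681 and 1580 CPM in overexpression libraries 1 to 4. The sums lay close together within each group, apart from control 2, and did not overlap. As CPM of the counts outside the mitochondrial genome alone, the sum was 1921, 2626, 1882 and 1781 in controls 1 to 4, against 2767, 2671, 2620 and 2575 in overexpression libraries 1 to 4. On that scale control 2 reached into the range of the overexpression libraries, and the other 3 controls stayed below it.

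**Figure D2:**
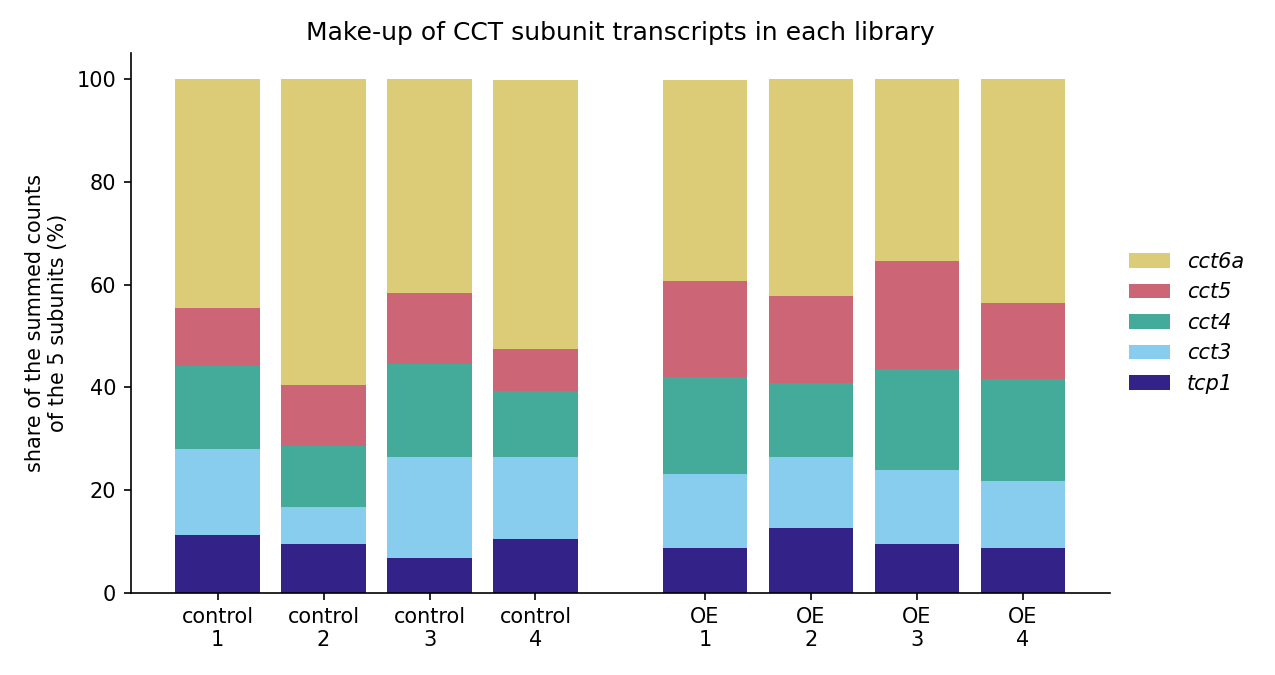
Share of each CCT subunit in the summed counts of the 5 (vertical axis, %), with 1 stacked bar per library (OE, Hmga1a overexpression). The cct5 band was 8.35% to 13.9% in controls and 14.7% to 21.1% with overexpression, and the other 4 bands overlapped between the groups.

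The make-up of the subunit transcripts was compared within each library, which does not depend on how libraries are scaled. Counts are of unique identifiers, 1 per captured molecule, so levels were not divided by transcript length. How evenly different genes were captured and counted was not tested, so shares and order of the subunits are those of counts. The share of cct5 in the summed counts of the 5 was 11.4% ± 2.31 in controls and 17.8% ± 2.74 with overexpression (SD, n = 4), and every overexpression library was above every control. How often such shares fail to overlap in other sets of 5 genes was not tested, and cct5 is the subunit with the largest fold change. The nearest libraries in its share were control 3, at 13.9%, and overexpression library 4, at 14.7%. Their exact 95% binomial intervals overlapped, at 9.38% to 19.6% and 12.5% to 17%. The share of cct6a was 49.5% ± 8.11 and 40.2% ± 3.66, with overlap. In control 2 it was 59.5%, with an exact 95% binomial interval of 43.3% to 74.4%, which covers counting error only. The shares of cct4 (14.7% ± 2.92 and 18.2% ± 2.53), cct3 (14.9% ± 5.4 and 13.9% ± 0.673) and tcp1 (9.51% ± 2.01 and 9.88% ± 1.75) overlapped between the groups as well. The order of the mean levels was cct6a, cct4, cct3, cct5 and tcp1 in controls and cct6a, cct4, cct5, cct3 and tcp1 with overexpression. Below cct6a, neighbours in the control order overlapped in their library values, and with overexpression cct4, cct5 and cct3 overlapped while tcp1 lay below cct3 in every library.

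Of the 10 ratios between subunits, 1 had groups that did not overlap, against 41.7% of all pairs of tested genes with counts in every library. That was the ratio of cct5 to cct6a counts. It was 0.254, 0.200, 0.335 and 0.160 in controls 1 to 4, and 0.480, 0.396, 0.594 and 0.336 across overexpression libraries 1 to 4. Control 3 and overexpression library 4 were almost level. Ratios between the other subunits overlapped, such as cct4 to cct5, with means of 1.31 ± 0.229 and 1.04 ± 0.22 (SD, n = 4).

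Across the 8 libraries, the log2 levels of pairs of subunits had Pearson correlations from -0.20 (cct3 and cct6a) to 0.93 (cct4 and cct5), as a description of libraries that share the group difference. With each group's mean taken off, the pairs ran from -0.964 (cct3 and cct6a) over -0.684 (tcp1 and cct4) to 0.554 (cct4 and cct5), and the median over the 10 pairs was -0.12. In the pair cct3 and cct6a, control 2 was the lowest control for cct3, at 90.5 CPM on 3 counts. For cct6a it was the highest control, at 754.2 CPM on 25.07 counts. How far the value of -0.964 rests on this shallow library was not tested. The genes whose log2 levels followed the mean of the 5 most closely over the 8 libraries were anxa2a, an annexin (r = 0.99), bsg, which encodes basigin, a partner of lactate transporters (0.99), cox5ab, a subunit of respiratory complex IV (0.98), adss (0.98) and myl9b, a myosin regulatory light chain (0.98). With group means taken off, their correlations were lower, from 0.49 for myl9b to 0.76 for bsg, and the closest genes were afap1l1b (0.93), snx6, a sorting nexin (0.91), anapc16, of the anaphase-promoting complex (0.90), sh3pxd2aa (0.90) and hmgb2b, a chromatin protein (0.90). Of these, afap1l1b (r = -0.64), sh3pxd2aa (-0.58) and hmgb2b (-0.67) ran against the subunits when group means were kept. Both sets are the highest of all other tested genes over only 8 libraries. How high such a maximum reaches by chance was not tested.

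**Figure D3:**
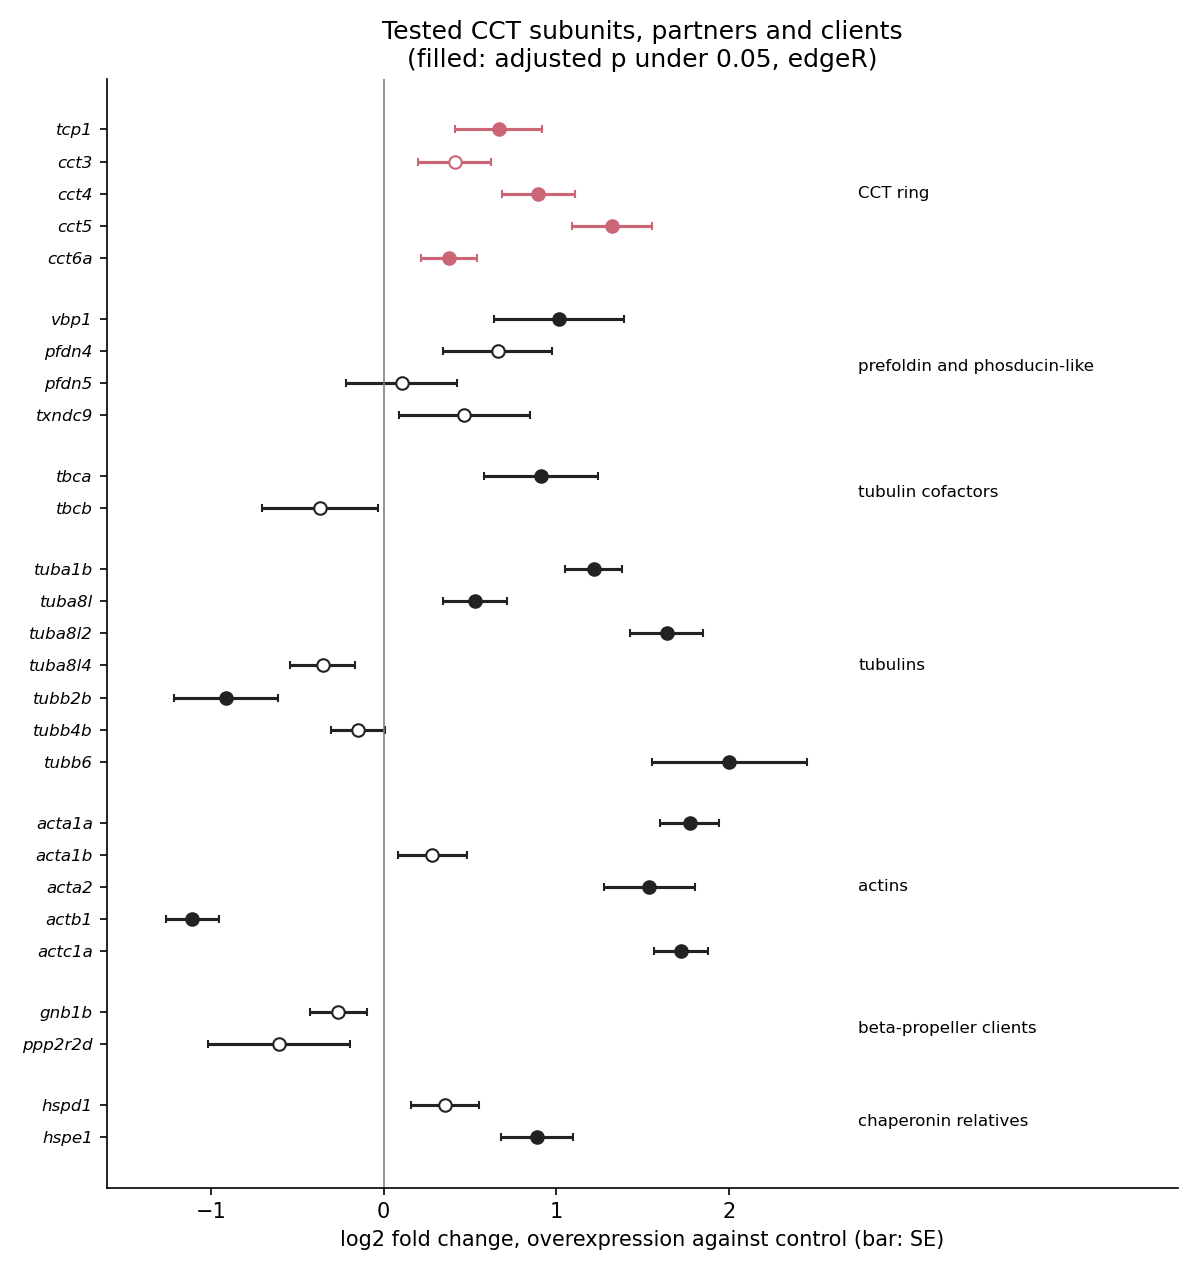
Log2 fold change with overexpression against control (horizontal axis, bars are SE) of the tested CCT subunits, partners and clients, filled where the adjusted p in edgeR was under 0.05. Among the subunits cct5 lay highest at 1.33, and the actins ran from -1.11 for actb1 to 1.77 for acta1a. With libraries scaled on contractile genes most subunits were at or below 0.

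Of the partners that feed the ring, few were abundant enough to test. Among prefoldin and phosducin-like genes, 4 of 9 in the table were tested, 1 rose and 0 fell, a share close to the 30.4% of all tested genes that passed as higher, and the median on the log2 scale was 0.57 (2 higher and 0 lower at an unadjusted p under 0.05 in edgeR, and 0 and 0 in DESeq2). The gene that rose was vbp1, a prefoldin subunit, at 33.97, 150.8, 48.2 and 25.8 CPM in controls 1 to 4, against 78.3, 61.4, 91.9 and 105.8 CPM in overexpression libraries 1 to 4. Control 2, on 5 counts, stood above all other libraries and the groups overlapped. The mean levels of vbp1 differed 1.3-fold, less than the fitted value. Its controls alone would not have passed the filter on low counts, since control 4 had 7.01, so its testing leans on the overexpression libraries. For vbp1 the results were as follows. Its log2 fold change was 1.02 ± 0.37 (SE; adjusted p = 0.0197, edgeR), and the call was lost in DESeq2 (adjusted p = 0.0695). In edgeR it was lost with scaling on contractile genes (0.03, adjusted p = 0.961), with the stricter filter (0.74, 0.0824), without control 1 (0.79, 0.13), without control 4 (0.74, 0.132) and without overexpression library 4 (0.91, 0.0582). The prefoldin gene pfdn4 was at 0.66 ± 0.32 (adjusted p = 0.0687, edgeR) and pfdn5 at 0.11 ± 0.32 (adjusted p = 0.792, edgeR).

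Of the tubulin cofactors, 2 of 6 were tested, and 1 rose and 0 fell (1 and 0 also at an unadjusted p under 0.05 and in DESeq2). Over all tested genes, 30.4% passed as higher and 29.2% as lower. The cofactor gene tbca, whose product binds beta-tubulin after its release, was at 31.1, 30.2, 58.9 and 69.9 CPM in controls 1 to 4, against 80.7, 86.3, 131.7 and 87.6 CPM in overexpression libraries 1 to 4. All overexpression libraries lay above all controls, as they did for 25.7% of all tested genes, and control 2 rests on 1 count. The controls of tbca alone would not have passed the filter on low counts. The log2 fold change of tbca was 0.91 ± 0.33 (SE; adjusted p = 0.0176, edgeR). It lost the call without control 1 (0.55, adjusted p = 0.208, edgeR) and with the stricter filter (0.63, 0.0784), and was -0.05 with scaling on contractile genes. The cofactor gene tbcb, which acts on alpha-tubulin, was at -0.37 ± 0.34 (adjusted p = 0.349, edgeR).

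Of 7 tubulin genes tested, 4 rose and 1 fell, where 30.4% of all tested genes rose and 29.2% fell, and their median was 0.53 on the log2 scale. The alpha-tubulin genes tuba8l2 (174.2 ± 65.9 to 473.5 ± 77.3 CPM, 1.64 ± 0.21) and tuba1b (511.2 ± 154 to 1084 ± 78.6 CPM, 1.22 ± 0.16) rose, as did tuba8l (0.53 ± 0.19) and the beta-tubulin gene tubb6 (2.00 ± 0.45). The groups overlapped for tubb6, which was at 14.2, 90.5, 5.36 and 22.1 CPM in controls 1 to 4, on 1 to 6 counts each, against 62.8 to 94.9 CPM with overexpression. Its mean levels differed 2.29-fold, less than the fitted value, and control 2 was the high one on 3 counts. The controls of tubb6 alone would not have passed the filter on low counts. Its place among the 4 that rose thus leans on the group where it is high. The beta-tubulin gene tubb2b fell from 99.2 ± 21.5 to 49.7 ± 5.10 CPM (-0.91 ± 0.30, adjusted p = 0.00981, edgeR). The most abundant one, tubb4b, was at -0.15 ± 0.16, short of the threshold (adjusted p = 0.433, edgeR). With scaling on contractile genes tuba8l2 still passed as higher (0.65, adjusted p = 0.0226, edgeR), and tuba1b (0.26) and tubb6 (1.03) did not. The call of tubb2b was lost with library totals alone (-0.53, adjusted p = 0.142, edgeR), with no filter (-0.68, 0.2), with the milder filter (-0.73, 0.0636) and without control 4 (-0.79, 0.0584).

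Of 5 actin genes tested, 3 rose and 1 fell, beside the same 30.4% and 29.2% of all tested genes, and their median was 1.54 on the log2 scale. The cardiac and skeletal muscle actin genes actc1a (1464 ± 115 to 4858 ± 1130 CPM, 1.73 ± 0.16) and acta1a (548.7 ± 186 to 1717 ± 128 CPM, 1.77 ± 0.17) and the smooth muscle actin gene acta2 (89.0 ± 59.3 to 287.9 ± 58.8 CPM, 1.54 ± 0.27) rose. The cytoplasmic actin gene actb1 fell from 1653 ± 441 to 800.3 ± 84.8 CPM (-1.11 ± 0.15, adjusted p = 4.4e-07, edgeR). With scaling on contractile genes actc1a (0.77) and acta1a (0.83) still passed as higher and acta2 (0.56) did not. The scaling list holds actc1a itself. The controls of acta2 alone would not have passed the filter on low counts, since control 2 had 1 count. The cytoplasmic actin gene actb2 was listed at 0 in all libraries. Actins and tubulins have near-identical copies that can share reads, so which copy a count belongs to is uncertain. Summed over 8 actin genes the level was 3590 to 4517 CPM in controls and 7060 to 10040 CPM with overexpression, and over 18 tubulin genes 2197 to 3470 CPM and 3209 to 3638 CPM.

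Of 17 beta-propeller clients in the table, 2 were tested. In edgeR 0 of them rose or fell, beside 30.4% and 29.2% of all tested genes. The count was also 0 at an unadjusted p under 0.05 and in DESeq2. The 2 tested were gnb1b, a G protein beta subunit, at -0.26 ± 0.17 (adjusted p = 0.173, edgeR) and ppp2r2d, a regulatory subunit of protein phosphatase 2A, at -0.61 ± 0.41 (adjusted p = 0.205, edgeR). Both passed as lower with scaling on contractile genes, as did 1323 of all 2501 tested genes. The call as lower was also made for gnb1b with the stricter filter (-0.55, adjusted p = 0.00403, edgeR) and for ppp2r2d without control 1 (-1.09, 0.03). Without single libraries ppp2r2d ran from -0.07 to -1.09, and 6 of the 17 were listed at 0 in all libraries. The mitochondrial chaperonin is a distant relative of CCT, made of the hspd1 product with the hspe1 product as its lid. Of the pair, hspe1 rose from 338.7 ± 183 to 526.2 ± 39.0 CPM (0.89 ± 0.21, adjusted p = 0.000566, edgeR) and was -0.09 with scaling on contractile genes. Its groups overlapped, since control 2, at 603.4 CPM on 20.05 counts, stood above every overexpression library (471.5 to 557.4 CPM). The hspd1 transcript was at 220.6 ± 36.1 and 278.4 ± 16.5 CPM (0.36 ± 0.20), short of the threshold (adjusted p = 0.119, edgeR).

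The authors' deposited table compares 3 control and 3 overexpression libraries, which leave out control 2 and overexpression library 1. In the authors' deposited table the log2 fold changes are 1.61 for cct5, 1.15 for cct4, 1.02 for tcp1, 0.76 for cct6a and 0.61 for cct3, with FDR values from 2.32e-08 to 0.0178. All 5 are thus under an FDR of 0.05 and higher there, beside 14.2% of the 7998 genes of the authors' deposited table. It marks cct5, cct4 and tcp1 as up, as it does 16.0% of its genes. The mark is not this FDR threshold, since it covers 1280 genes against 1134 and leaves out cct6a and cct3. Its rule was not worked out here. Refitted as above on those 6 libraries, the values were 1.35, 0.89, 0.76, 0.50 and 0.36 in that order of genes, with cct3 short of the threshold (adjusted p = 0.141, edgeR). All 5 were lower than the authors' values by nearly the same amount. The refit tested 2661 genes, and the source of this common offset was not tested. As both fits use the same libraries, the authors' values are no independent result. Among the gene ontology terms of raised genes, the authors' deposited table gives protein folding (19 genes, 3.42-fold enriched, adjusted p = 0.00115) and unfolded protein binding (15 genes, 3.40-fold, adjusted p = 0.00882), each of which includes cct5, cct4 and tcp1. For the term chaperonin-containing T-complex, in which these 3 are the raised genes listed, the authors' deposited table gives an enrichment of 7.23-fold and an adjusted p of 0.406.

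**Figure D4:**
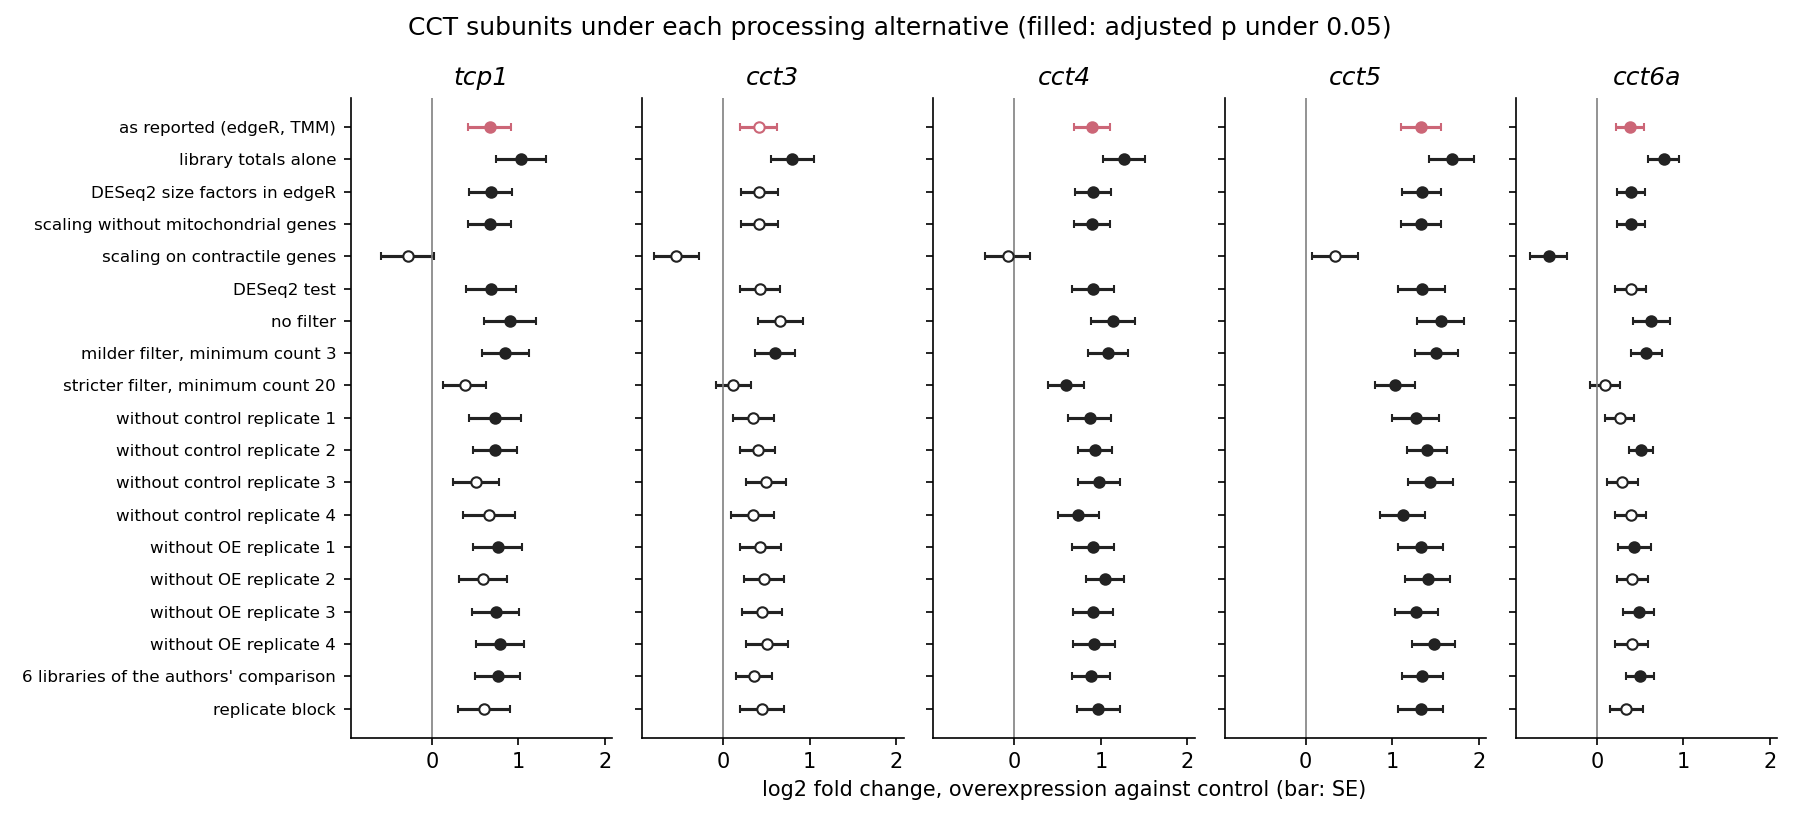
Log2 fold change (horizontal axes, bars are SE) of the 5 CCT subunits as reported and under each processing alternative, filled where the adjusted p was under 0.05 (OE, Hmga1a overexpression). Values of cct5 ran from 0.34 to 1.69, and scaling on contractile genes put the other 4 subunits below 0.

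The direction of change of tcp1, cct3, cct4 and cct6a thus depended on what the libraries were scaled on. The value of cct5 stayed above 0, at 0.34 with scaling on contractile genes. A change of scaling moves all genes by about the same amount, and scaling on contractile genes took the median of all tested genes from 0.01 to -0.94 on the log2 scale and that of the 5 subunits from 0.67 to -0.28. Library totals alone put these medians at 0.38 and 1.03. Where the filter or the libraries changed, the distance between the 2 medians, 0.66 as reported, was 1.04 with no filter, 0.42 with the stricter filter and 0.47 without control 3. The contractile scaling rests on a sum of counts, in which abundant genes such as tpm4a (5317 ± 1740 CPM in controls) and tnnt2a weigh most. Of the 9 contractile genes tested, 6 rose and 3, ttn.1, ttn.2 and myh6, fell as reported, beside 30.4% and 29.2% of all tested genes. Set against that sum, cct6a was lower with overexpression (-0.56, adjusted p = 0.0221, edgeR), and tcp1, cct3, cct4 and cct5 did not pass. Of all 2501 tested genes, 1323 passed as lower and 160 as higher on that scaling.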

How the data were processed

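The authors deposited estimated counts per gene for 8 libraries, which are unique identifier counts corrected for reuse. This was read from the values, of which 99.89% fall within 0.01% of the correction of a whole number among 4096 identifiers. The subunits used at most 9.69% of them. The submitters' processing notes name the build danRer11 and edgeR. The sources used here do not give the aligner, the annotation or the use of strand. The authors' deposited table also gives, per the file headers, log2 fold changes, p-values and FDR, and for gene ontology terms the count of genes, the fold enrichment ratio and an adjusted p-value. By their values its count columns are those of controls 1, 3 and 4 and of overexpression libraries 2, 3 and 4 (100% equal, tolerance 1e-06).

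Groups came from sample titles. Counts were rounded, 67 spike-in entries were left out, and genes were kept by filterByExpr (minimum count 10) in R 4.3.3 with edgeR 4.0.16. This filter asks for enough counts in 4 libraries, whichever group they belong to. Libraries were scaled by TMM over the total of kept genes and tested with glmQLFit (robust) and glmQLFTest, with Benjamini-Hochberg adjustment over all 2501 genes and a threshold of 0.05. The SE comes from the coefficient and its F statistic. DESeq2 1.42.0, other scalings and filters, single libraries left out and a replicate block were alternatives. The contractile scaling used the summed counts of 13 listed genes in the table. Levels for the likeness of genes were log2 CPM with a prior count of 2. The test was checked on simulated counts, where it recovered 18 of 69 changes of 2-fold and 72 of 75 of 4-fold, with 3 false calls. The simulated dispersion was 0.1, against a common dispersion of 0.0338 in these data. Few genes were changed in the simulation, equally many up as down, so it cannot show how calls depend on scaling. Intervals cover counting error only.

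Named genes are the 5 subunits, hmga1a, from each list up to 4 called members (smallest p first) or else its 2 most abundant, members that moved against their list, and the 5 genes most alike. Of genes beside these, pfdn4, pfdn5, tbcb, tuba8l, tubb4b, hspd1, tnnt2a, tpm4a, dsRED, eGFP and the genes at 0 were picked with their values in view. The members and lists were chosen with earlier results of these data known. Gene positions and sequences are not analysed here.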

Additional observations from a re-analysis of the deposited data

Results flagged for a closer look

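Among 72 groups of 4 libraries looked at, 7 had a library far from the other 3, and chance flags about 1 group in 20. For cct4, overexpression library 2 was low, at 234.1 CPM against 314.0 to 327.7 CPM in the others of its group, and its ratio of tcp1 to cct4 counts was high, at 0.861 against 0.441 to 0.487. The summed level of the 5 subunits was high in control 2, the shallowest library, at 1267 CPM against 1015 to 1053 CPM, and at 2626 against 1781 to 1921 CPM when only counts outside the mitochondrial genome make up the total. Among partners and clients, tbca was high in overexpression library 3 (131.7 CPM against 80.7 to 87.6 CPM) and actb1 was low in control 2 (995.6 CPM against 1806 to 1918 CPM). The target gene hmga1a was low in overexpression library 1, at 80.7 CPM against 128.6 to 132.8 CPM in the others of its group. No explanation for these values was tested.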

How the results depend on the processing

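Of the 5 subunits, 4 passed as higher and 0 as lower. Scaling on contractile genes gave 0 higher and 1 lower, the stricter filter (minimum count 20) 2 higher, and leaving out single libraries 2 to 4 higher and 0 lower. The replicate block also gave 2 higher. Same-numbered libraries correlated between -0.06 and 0.014 in their deviations from the group means, and no control correlated best with its own number. The sample titles do not say whether same-numbered libraries were prepared together, and this was not tested. Scaling on contractile genes lowers all genes alike, by about the shift of the all-gene median from 0.01 to -0.94, so named genes with a smaller rise came out below 0, among them tcp1 (-0.28), cct4 (-0.08), cct6a (-0.56), tbca (-0.05), hspe1 (-0.09) and, passing in neither fit, cct3 (-0.54) and hmga1a (-0.49). It gave 3 partner and client genes higher and 10 lower, against 10 and 2, and 160 genes higher and 1323 lower over the whole table, against 760 and 730, so that 10.8% of called genes were higher, against 51.0%. Library totals alone gave 1 partner or client gene lower, 479 genes lower over the whole table and 66.8% of called genes higher. The milder filter (minimum count 3) gave 17 partner and client genes higher of 33 tested. The stricter one gave 5 lower, and 465 genes higher over 1450 tested. Without single libraries, partner and client genes lower ranged from 1 to 3, and 9 to 12 were higher. The call of cct5 held in 17 of 18 alternatives and that of cct4 in 17 of 18, and both were lost with scaling on contractile genes. The stricter filter, with scaling recomputed on the genes it kept, lowered tcp1 (0.38), cct6a (0.09), cct3 (0.12), cct4 (0.60) and cct5 (1.03). Genes outside the ring came out lower by a similar amount, such as actc1a (from 1.73 to 1.42) and actb1 (from -1.11 to -1.41). The lowering was thus not particular to the subunits, and its cause was not tested. Depth limits control 2 most, with 3 to 25.07 counts per subunit.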
